A study of Mus musculus with 12 samples.

Results

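The genes described here are the receptors through which cells of the mouse bind the Fc part of immunoglobulin G, together with the chain and the kinase that carry their signal. They were chosen by symbol: Fcgr1, Fcgr2b, Fcgr3, Fcgr4, Fcer1g, Fcgrt and Syk, 7 of the 55453 genes in the count file, and all 7 were among the 18311 genes with enough counts to be tested. Their reads were measured by RNA-Seq of skin from 12 female C57/BL6 mice, 8 to 12 weeks old, with 3 mice in each of 4 groups, which cross genotype (WT or KO) with treatment (PBS or BLM). WT mice had an intact Thy1 gene and KO mice a Thy-1 knockout, BLM mice received bleomycin at 10 mg/kg per day by daily subcutaneous injection into the back, and PBS mice received the vehicle in the same way. Bleomycin is a drug that injures the skin and is used to provoke dermal fibrosis. The skin was harvested at day 21, and according to the methods injections lasted at most 14 days. It is a whole tissue, so fewer cells of a type and less RNA per cell cannot be told apart.

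Fc gamma receptors sit on macrophages, monocytes, neutrophils, mast cells, NK cells and B cells and let these cells respond to antibody-coated material. Fcgr1 (the high-affinity receptor), Fcgr3 and Fcgr4 are activating: they pair with the gamma chain Fcer1g, whose immunoreceptor tyrosine-based activation motif is phosphorylated by Src kinases and then binds Syk. Fcgr2b is the inhibitory receptor, whose own tail recruits phosphatases that dampen the same signal. Fcgrt, the neonatal Fc receptor, is unlike the others: it pairs with B2m (beta-2 microglobulin), works inside endothelial cells, macrophages and other cells, and returns IgG to the blood.

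In the GRCm38 build (GENCODE M21 annotation), 4 of the 7 genes lie close together on chromosome 1. These are Fcgr2b at chr1:170958617-170976547, Fcgr4 at chr1:171018920-171029761, Fcgr3 at chr1:171051174-171064935 and Fcer1g at chr1:171229572-171234365, all on the minus strand except Fcgr4. Fcgr1 lies at chr3:96282909-96293969 on the minus strand, Fcgrt at chr7:45092990-45103851 on the minus strand and Syk at chr13:52583173-52648792 on the plus strand. Fcgr2b and Fcgr3 share 94 stretches of 75 bases, which is 5.42% of all such stretches in the transcripts of Fcgr3 and 1.63% of those of Fcgr2b, so a small part of their reads could be split between them. None of the other pairs among the 7 genes shared such a stretch. The antisense gene Gm38204 covers 155 of the 5790 exonic bases of Fcgr2b, and whether the counting used strand was not stated.

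The promoters of Fcgr1 and Fcgr4 are shown because these receptors rose the most after bleomycin and because they were the only ones of the 7 genes with a match to either of the motifs searched. The sequences come from RefSeq (GRCm38.p6) and run 5′ to 3′ on the strand of the gene, up to the base before the annotated gene. Capitals mark the match. The motifs were TTCNNNGAA, the type bound by STAT factors, and GAGGAAGT, the type bound by PU.1, searched on both strands of the 250 bases before each RefSeq start. For Fcgr2b 203 of these bases, and for a start of Syk all 250, lay within annotated exons.
Fcgr1, chr3:96293970-96294219, minus strand: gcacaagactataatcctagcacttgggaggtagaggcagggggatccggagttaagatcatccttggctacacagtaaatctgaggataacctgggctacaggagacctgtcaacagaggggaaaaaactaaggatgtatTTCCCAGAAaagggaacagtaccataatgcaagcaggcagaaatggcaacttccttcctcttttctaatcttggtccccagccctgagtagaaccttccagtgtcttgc
Fcgr4, chr1:171018676-171018919, plus strand: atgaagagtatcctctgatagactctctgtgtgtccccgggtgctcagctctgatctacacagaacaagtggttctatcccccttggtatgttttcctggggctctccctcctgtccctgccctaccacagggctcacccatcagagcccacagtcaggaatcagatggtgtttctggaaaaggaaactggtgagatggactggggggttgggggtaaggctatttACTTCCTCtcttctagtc
TTCNNNGAA was found in 7.02% of the 32851 promoters in the table, and GAGGAAGT in 2.44%. The match in Fcgr1, TTCCCAGAA, began 109 bases before the start, and the one in Fcgr4, ACTTCCTC, lay on the opposite strand, 24 bases before the start. A match says only that these letters are present.

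The 12 libraries held 26473700 to 38890450 counts each (median 31494965). Levels are given as CPM, counts scaled to the library total after TMM normalization. Thy1 itself measured 123 ± 23.7 CPM (mean ± SD, n = 3) in WT mice after PBS and 332 ± 93.8 after BLM, against 73.3 ± 25.9 and 103 ± 22.4 in KO mice. It was lower in KO without overlap under each treatment (adjusted p = 0.224 after PBS and 0.112 after BLM, edgeR), and the KO libraries still held Thy1 reads. The keratinocyte markers Krt1, Krt10 and Krt14 were abundant in every mouse. A list of growing-hair genes separated the WT groups and was mixed within the KO groups. Its mean level was 9.93 to 10.49 log2 CPM in the WT PBS mice and 0.43 to 4.16 in the WT BLM mice. In WT skin treatment and hair level thus changed together. In KO PBS the mean was 10.54 in mouse 136 but -0.10 and 2.61 in mice 137 and 139. In KO BLM it was 9.44 in mouse 141 but 5.90 and 6.83 in mice 143 and 144. KO PBS mouse 136 therefore stands apart from its group, and where a call or a direction among the 7 genes changed without it, this is said beside the result.

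**Figure D1:**
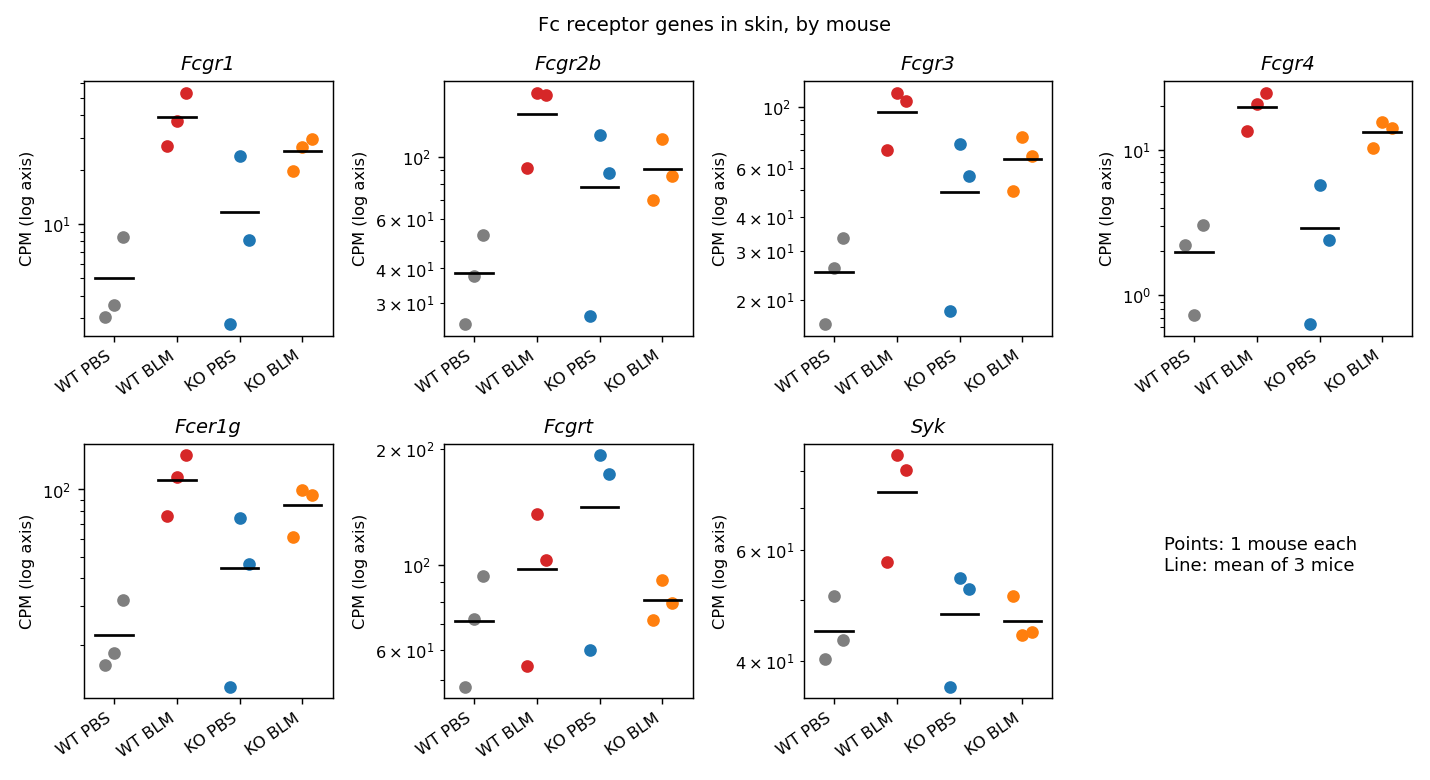
Level of each of the 7 genes in every mouse, in CPM on a log axis, by group, with 1 point per mouse and a bar at the group mean. The WT BLM mice lie above all WT PBS mice for every gene but Fcgrt, and KO PBS mouse 136 lies at the low end of its group.

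In WT skin, bleomycin was followed by a rise of all 3 activating receptors, the inhibitory receptor, the gamma chain and Syk, and by no detectable rise of Fcgrt. In the KO skin none of the 7 genes passed the test, and Fcgr4 alone was separated between the KO groups. Relative to Fcgr2b, though, Fcgr1, Fcgr4 and Fcer1g were higher after bleomycin in both genotypes.

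Fcgr4 binds IgG2 antibodies with intermediate affinity and is known from monocytes, macrophages and neutrophils. Its level was 2.20, 0.724 and 3.03 CPM in the WT PBS mice, from 22 to 119 reads, and 13.6, 20.8 and 24.8 CPM in the WT BLM mice. Every WT BLM mouse was more than 4 times as high as every WT PBS mouse. The fold change was 9.88 (log2 fold change 3.30, SE 0.71, adjusted p = 0.0100, edgeR quasi-likelihood test). Fcgr4 passed the threshold in all 12 fits that left out 1 mouse, with adjusted p from 0.000823 to 0.0431.

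Fcgr1, the only receptor of the group that holds single IgG molecules tightly, was at 3.04, 3.55 and 8.46 CPM in WT PBS and at 26.9, 37.3 and 53.4 CPM in WT BLM. The groups did not overlap, and the rise was 7.78-fold (log2 fold change 2.96, SE 0.69, adjusted p = 0.0129, edgeR). Fcgr3, the low-affinity activating receptor, was at 16.4, 26.1 and 33.5 CPM in WT PBS and at 69.8, 113 and 105 CPM in WT BLM. All 3 WT BLM mice were above all WT PBS mice, a 3.79-fold difference (log2 fold change 1.92, SE 0.45, adjusted p = 0.0135, edgeR).

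The inhibitory receptor Fcgr2b rose as well. Its level was 25.3, 37.5 and 52.6 CPM in the WT PBS mice and 91.6, 170 and 167 CPM in the WT BLM mice, again without overlap. The fold change was 3.71 (log2 fold change 1.89, SE 0.49, adjusted p = 0.0186, edgeR).

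The gamma chain Fcer1g, which also serves the high-affinity IgE receptor and several lectin receptors, was at 16.4, 18.5 and 31.9 CPM in WT PBS and at 76.3, 113 and 142 CPM in WT BLM. It rose 4.97-fold (log2 fold change 2.31, SE 0.54, adjusted p = 0.0129, edgeR), and the groups were apart. Syk, the kinase that docks on the phosphorylated gamma chain and that B cells, platelets and epithelial cells also use, rose the least. It was at 40.3, 50.6 and 43.2 CPM in WT PBS and at 57.5, 84.8 and 80.5 CPM in WT BLM, a 1.66-fold difference without overlap (log2 fold change 0.73, SE 0.19, adjusted p = 0.0176, edgeR).

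Fcgrt did not pass the test. It was at 48.1, 72.3 and 93.4 CPM in WT PBS and at 54.4, 135 and 103 CPM in WT BLM, and WT BLM mouse 145 lay within the range of the WT PBS mice (log2 fold change 0.45, SE 0.43, adjusted p = 0.431, edgeR).

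In all, 6 of the 7 genes rose in WT skin, where 19.8% of all genes tested were called higher and 34% were called in either direction. The same 6 were higher without overlap, as were 28.3% of all genes. The median log2 fold change was 1.92 over the 7 genes and 0.018 over all genes. The calls other than that of Fcgr4 depended on single WT mice: without WT PBS mouse 159 the call of Fcgr4 remained (adjusted p = 0.0431) and the other 5 had adjusted p from 0.0539 to 0.0718, and without WT PBS mouse 160 the calls of Fcgr4 and Syk remained. Without WT PBS mouse 161 Syk was lost, and without WT BLM mouse 146 or 147 Fcgr2b and Syk were lost.

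**Figure D2:**
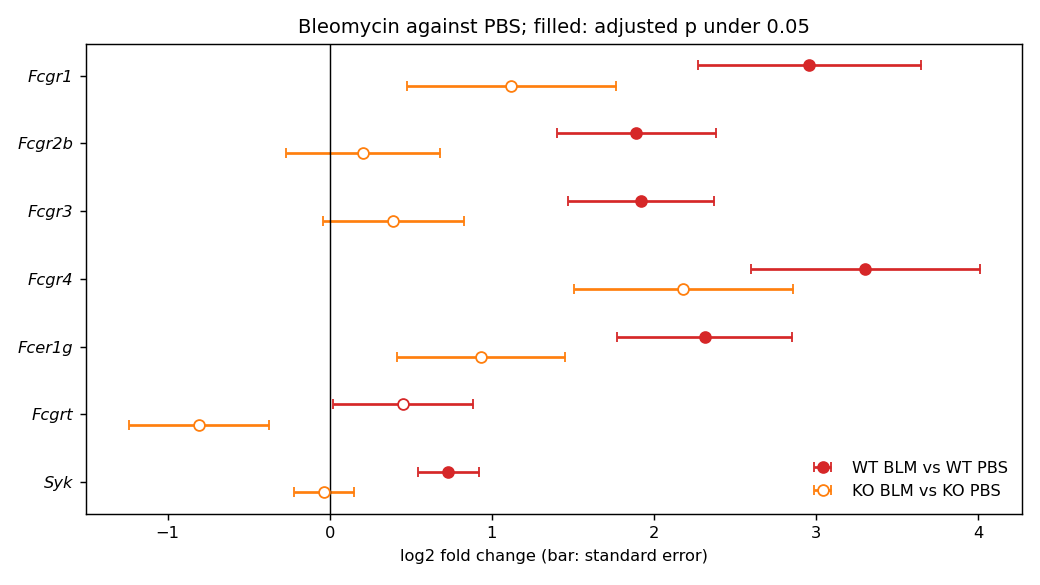
Log2 fold change of BLM over PBS for each of the 7 genes in WT and in KO mice, with bars for the SE of the edgeR fit and filled points for adjusted p under 0.05. The WT values of the 6 genes other than Fcgrt lie between 0.73 and 3.30, and the KO values of all 7 lie below the WT values.

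In KO skin the same contrast called none of the 7 genes by edgeR, against 0.306% of all genes tested. One gene, Fcgr4, had an unadjusted p under 0.05, as did 20% of all genes, and DESeq2 called 1, again Fcgr4 (adjusted p = 0.0227, DESeq2), against 6.14% of all genes. Its level was 0.632, 5.74 and 2.38 CPM in the KO PBS mice and 10.3, 15.5 and 14.2 CPM in the KO BLM mice. All 3 KO BLM mice were above all KO PBS mice, which 10.8% of all genes also showed, with a log2 fold change of 2.18 (SE 0.68, adjusted p = 0.151, edgeR). Without both KO mice with high hair genes, 136 and 141, the adjusted p was 0.0474 (edgeR), and 13.5% of all genes were then called higher.

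The other receptors and the gamma chain overlapped between KO PBS and KO BLM, with KO PBS mouse 137 within or above the range of the KO BLM mice. Fcgr1 was at 2.79, 23.9 and 8.19 CPM in KO PBS and at 19.7, 26.5 and 29.7 CPM in KO BLM (log2 fold change 1.12, SE 0.65, adjusted p = 0.346, edgeR). Fcgr2b was at 27.2, 120 and 88.0 CPM against 70.2, 116 and 85.8 CPM (0.21, SE 0.47, adjusted p = 0.832). KO PBS mouse 137 had more Fcgr2b than any KO BLM mouse, and without mouse 136 the value turned to -0.20 (adjusted p = 0.718, edgeR). Fcgr3 was at 18.2, 73.2 and 56.1 CPM against 49.6, 77.6 and 66.7 CPM (0.39, SE 0.44, adjusted p = 0.628), and without mouse 136 the value was -0.0011 (adjusted p = 0.999, edgeR). Fcer1g was at 13.1, 74.3 and 46.4 CPM against 60.9, 99.7 and 94.8 CPM (0.93, SE 0.52, adjusted p = 0.330). In each of these 4 genes KO PBS mouse 136 was the lowest of its group and within or below the range of the WT PBS mice.

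Syk was nearly level in the KO groups, at 36.4, 54.2 and 52.1 CPM in KO PBS and 50.7, 44.0 and 44.4 CPM in KO BLM (log2 fold change -0.036, SE 0.19, adjusted p = 0.935, edgeR). Fcgrt went the other way from the receptors, from 59.9, 192 and 171 CPM in KO PBS to 71.6, 91.1 and 79.6 CPM in KO BLM (-0.81, SE 0.43, adjusted p = 0.317). The groups overlapped through mouse 136. Without that mouse Fcgrt was called lower in KO BLM (-1.17, SE 0.34, adjusted p = 0.0488, edgeR), as were 4.79% of all genes.

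The difference between the genotypes was tested directly. The difference of the bleomycin responses (KO minus WT) was negative for all 7 genes, with a median of -1.38 against -0.054 over all genes, and none of the 7 was called by edgeR or by DESeq2. By edgeR 3 had an unadjusted p under 0.05, near the 31.1% of all genes that did. Over all genes the share called was 0% by edgeR and 18.5% by DESeq2. Syk came nearest (-0.77, SE 0.26, adjusted p = 0.0995), followed by Fcgr2b (-1.68, SE 0.68, adjusted p = 0.129) and Fcgr3 (-1.53, SE 0.62, adjusted p = 0.133), and the other 4 had adjusted p from 0.184 to 0.410 (edgeR). Without KO PBS mouse 136, edgeR called 6 of the 7 lower in KO, all except Fcgr4, and without both mice 136 and 141 it also called 6. Mouse 136 decided these calls, as it did for many genes: 19.5% of all genes were called lower without it and 18.9% without both mice.

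Between the PBS groups, 0 of 7 genes were called by edgeR and 0 by DESeq2, 1 had an unadjusted p under 0.05 (Fcgrt, log2 fold change 0.99, SE 0.43, adjusted p = 0.243), and the shares of all genes were 0.0655% called by edgeR, 3.83% called by DESeq2 and 20.4% at an unadjusted p under 0.05. All 7 values were positive (KO over WT), with a median of 0.99, and all groups overlapped. Without KO PBS mouse 136, 5 genes were called higher in KO PBS: Fcgr1 (1.67, adjusted p = 0.0311), Fcgr2b (1.43, 0.0113), Fcgr3 (1.35, 0.00848), Fcer1g (1.44, 0.0125) and Fcgrt (1.35, 0.0139), each an adjusted p of edgeR. Without mouse 136, 17.8% of all genes were called higher in that contrast.

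Between the BLM groups, all 7 genes were lower in KO, with a median log2 fold change of -0.57, and edgeR called 0 of 7, against 0.0928% of all genes. One gene had an unadjusted p under 0.05, as did 16.6% of all genes. That gene was Syk, at 50.7, 44.0 and 44.4 CPM in KO BLM and 57.5, 84.8 and 80.5 CPM in WT BLM. Every KO BLM mouse was below every WT BLM mouse, as for 12.9% of all genes (-0.68, SE 0.19, adjusted p = 0.212, edgeR), and DESeq2 called Syk alone (adjusted p = 0.0435, DESeq2), against 3.34% of all genes. Without KO PBS mouse 136 edgeR called Syk as well (-0.68, SE 0.15, adjusted p = 0.0345), when 3.11% of all genes were called lower. For Fcgr1, Fcgr2b, Fcgr3, Fcgr4, Fcer1g and Fcgrt the adjusted p by edgeR was between 0.475 and 0.756.

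Averaged over the genotypes, 5 of the 7 genes were called higher after bleomycin, against 14.7% of all genes called higher and 22.9% called in either direction. Fcgr4 again led (log2 fold change 2.74, adjusted p = 0.00595, edgeR), then Fcgr1 (2.04, 0.0151), Fcer1g (1.62, 0.0149), Fcgr3 (1.16, 0.0277) and Fcgr2b (1.05, 0.0482). Syk (0.35, adjusted p = 0.0760) and Fcgrt (-0.18, adjusted p = 0.684) did not pass. Fcgr1, Fcgr4 and Fcer1g were called in all 12 fits that left out 1 mouse, Fcgr3 in 6 and Fcgr2b in 4. Both were lost without WT PBS mouse 159 or 160, WT BLM mouse 146 or 147, or KO BLM mouse 143 or 144, and Fcgr2b also without WT PBS mouse 161 or KO PBS mouse 139.

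Levels of different genes are compared here per kilobase of exon (CPM per kb). The length is that of all annotated exons of a gene together, 5790 bases for Fcgr2b and 1736 for Fcgr3. The order of genes depends on these lengths: in CPM, Fcgr2b was above Fcgr3 (38.5 and 25.3 on average in WT PBS). In WT PBS skin Fcgrt was the highest at 33.9 ± 10.8 CPM per kb (SD, n = 3), then Fcer1g at 25.5 ± 9.63, Fcgr3 at 14.6 ± 4.95, Fcgr2b at 6.65 ± 2.36, Syk at 4.77 ± 0.57, Fcgr1 at 1.94 ± 1.15 and Fcgr4 at 1.58 ± 0.93. The ranges of Fcgrt and Fcer1g overlapped, as did those of Fcer1g and Fcgr3, of Fcgr2b and Syk, and of Fcgr1 and Fcgr4. In WT BLM skin the gamma chain led at 127 ± 37.8 CPM per kb, Fcgr3 followed at 55.2 ± 13.2 and Fcgrt at 46.3 ± 19.3, the last 2 overlapping, and Fcgr1 (15.1 ± 5.15) and Fcgr4 (15.7 ± 4.52) were both above Syk (7.93 ± 1.57). In KO BLM skin the gamma chain was also the highest, with Fcer1g at 97.4 ± 24.1, Fcgrt at 38.4 ± 4.67 and Fcgr3 at 37.2 ± 8.10, the last 2 overlapping. In KO PBS skin Fcgrt was at 67.2 ± 33.9 CPM per kb and Fcer1g at 51.0 ± 35.1, with overlapping ranges.

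The 4 classical receptors and the gamma chain can be set against each other within a mouse, in ratios that library scaling leaves unchanged. These ratios are a description and were not tested. On the log2 scale, Fcgr4 over Fcgr2b was -3.53, -5.70 and -4.12 in the WT PBS mice and -2.75, -3.03 and -2.75 in the WT BLM mice. In the KO mice it was -5.43, -4.39 and -5.21 after PBS and -2.78, -2.91 and -2.59 after BLM. All 6 BLM mice were above all 6 PBS mice, the KO PBS mouse 137 included.

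Fcgr1 over Fcgr2b also separated, with a mean log2 ratio of -3.03 ± 0.38 in WT PBS and -1.87 ± 0.28 in WT BLM, and of -3.01 ± 0.59 and -1.83 ± 0.30 in the KO mice (SD, n = 3). Fcer1g over Fcgr2b was -0.79 ± 0.21, -0.36 ± 0.20, -0.89 ± 0.18 and -0.093 ± 0.21 in the same order. For Fcgr1, Fcgr4 and Fcer1g the ratio was higher without overlap after bleomycin in both genotypes, which 1.44% of all genes tested also showed, 2.21% in WT and 3.33% in KO. The gap was small for Fcer1g in WT, where the highest PBS mouse was at -0.63 and the lowest BLM mouse at -0.58. Fcgr3 did not: its log2 ratio to Fcgr2b was -0.60 ± 0.068, -0.55 ± 0.14, -0.65 ± 0.070 and -0.48 ± 0.11, with overlapping groups. Fcgr3 and Fcgr2b are the pair that shares sequence.

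**Figure D3:**
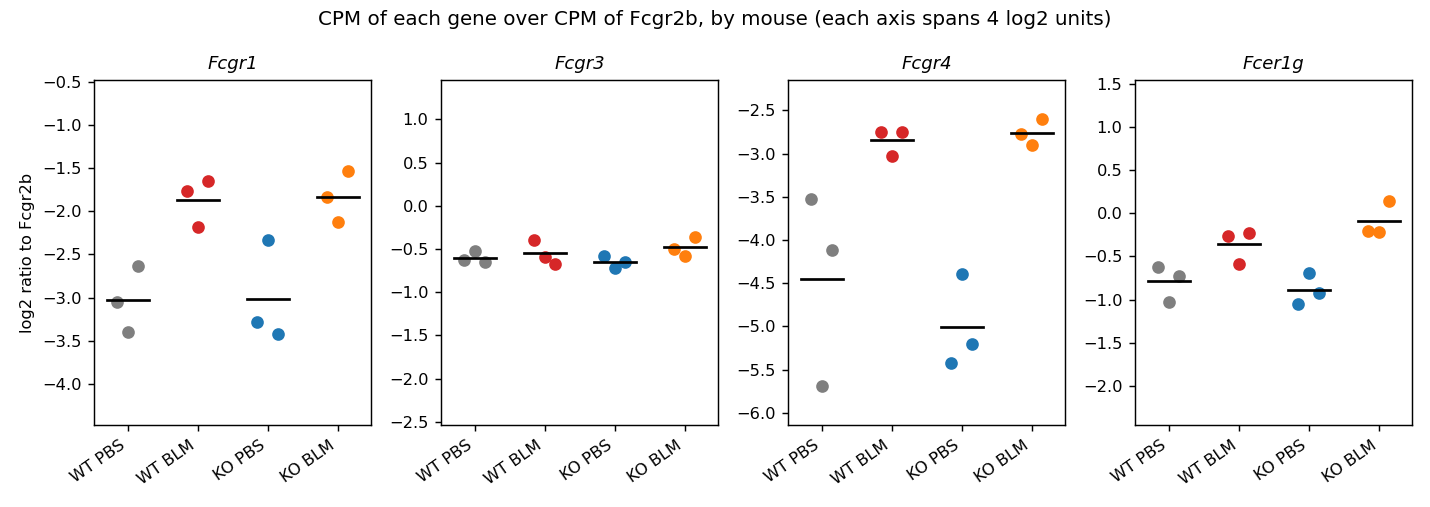
Log2 ratio of the activating receptors and the gamma chain to the inhibitory receptor Fcgr2b in every mouse, by group, with 1 point per mouse and a bar at the group mean. Fcgr1, Fcgr4 and Fcer1g lie higher in the BLM mice than in the PBS mice of both genotypes, and Fcgr3 stays within -0.72 to -0.36 in all 12 mice.

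Counted per kilobase, Fcgr3 made up 59.0% of the summed level of the 4 receptors in WT mice after PBS and 50.2% after BLM, and 59.7% and 50.8% in KO mice (means of 3 mice). Fcgr2b went from 26.8% to 22.1% in WT and from 28.0% to 21.3% in KO. Fcgr1 went from 7.49% to 13.6% in WT and from 8.15% to 13.4% in KO, and Fcgr4 from 6.67% to 14.1% and from 4.19% to 14.5%. These shares depend on the exon lengths used, are a description and were not tested.

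Macrophage markers moved with the receptors. The mean of 14 macrophage genes was 4.74 to 5.68 log2 CPM in WT PBS, 6.31 to 6.99 in WT BLM and 6.06 to 6.41 in KO BLM. In KO PBS it was 4.76 in mouse 136, 6.59 in mouse 137 and 6.32 in mouse 139. Of the 14, 10 rose in WT and 0 passed in KO by edgeR (4 at an unadjusted p under 0.05). Of all genes, 19.8% were called higher in WT and 20% had an unadjusted p under 0.05 in KO. Aif1, a cytoplasmic protein of macrophages, went from 4.59 ± 1.08 to 30.2 ± 10.5 CPM in WT. Cd163, the haemoglobin scavenger receptor of resident macrophages, was at 40.0 ± 18.7 and 16.9 ± 6.77 CPM in WT. In KO it was at 95.5 ± 60.7 and 11.4 ± 2.10 CPM. Cd163 was called lower averaged over genotypes (log2 fold change -2.16, adjusted p = 0.00833, edgeR). It was not called in WT alone (-1.24, adjusted p = 0.117, edgeR) or in KO alone (-3.07, adjusted p = 0.0681, edgeR).

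The macrophage list was put into the fit as a covariate, a description of what is left beside it, since the list rose with the receptors. None of the 7 genes was then called in WT by edgeR, where the share of all genes called fell to 0.83%. The WT log2 fold changes of Fcgr1, Fcgr2b, Fcgr3, Fcgr4, Fcer1g and Syk were 0.86, 0.14, 0.33, 1.34, 0.46 and 0.24. In KO, where 2.48% of all genes were called, Fcgr4 was called higher (2.12, SE 0.47, adjusted p = 0.0494, edgeR) and Fcgrt lower (-1.01, SE 0.15, adjusted p = 0.0164). With the hair list as covariate none of the 7 was called in WT, where only 0.0819% of all genes were, and Fcgr1, Fcgr4 and Fcer1g were called higher in KO (adjusted p = 0.0274, 0.0110 and 0.0180, edgeR), against 6.49% of all genes. The part of the macrophage and hair genes in these results was not tested.

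Set against the macrophage list within each mouse, Fcgr2b had a mean log2 difference of -0.045 after PBS and 0.35 after BLM in WT, and of 0.16 and 0.22 in KO. In WT the BLM mice were above the PBS mice for Fcgr2b and also for Fcgr3, as for 3.88% of all genes, and in KO both overlapped. Fcgr1, Fcgr4 and Fcer1g were higher against the list after bleomycin without overlap in both genotypes, as were 2.08% of all genes. Fcgr4 went from -4.49 to -2.49 in WT and from -4.85 to -2.54 in KO, Fcgr1 from -3.08 to -1.52 and from -2.86 to -1.61, and Fcer1g from -0.84 to -0.0084 and from -0.73 to 0.13. Fcgrt moved the other way, from 0.86 ± 0.0094 to -0.24 ± 0.32 in WT and from 1.08 ± 0.081 to 0.079 ± 0.036 in KO. In both genotypes all BLM mice were below all PBS mice, which 4.58% of all genes also showed (70.6% in WT and 9.59% in KO).

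**Figure D4:**
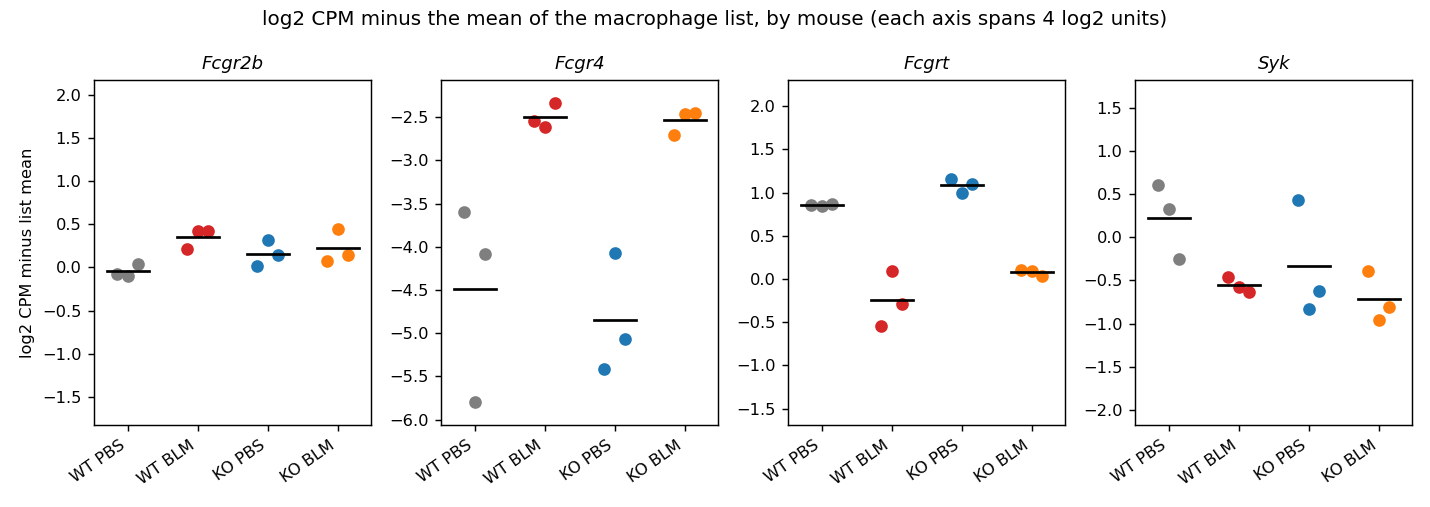
Log2 level of Fcgr2b, Fcgr4, Fcgrt and Syk minus the mean log2 level of 14 macrophage genes in every mouse, by group, with 1 point per mouse and a bar at the group mean. Fcgr4 is higher and Fcgrt lower in the BLM mice of both genotypes, and Fcgr2b stays within -0.10 to 0.45 in all 12 mice.

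Other cells that carry these receptors differed between groups as well. Of 10 neutrophil genes listed, 7 were tested. Their mean was -0.65 to -0.16 log2 CPM in the 6 PBS mice and 0.37 to 2.89 in the 6 BLM mice. KO PBS mice 137 and 139, which were high in macrophage genes, were thus low in neutrophil genes. Of 7 neutrophil genes tested, 5 rose and 1 fell in WT, and 0 passed in KO (6 at an unadjusted p under 0.05). Of 5 monocyte genes, 3 rose in WT and 1 in KO: Ly6c2, at 0.859 ± 0.475 CPM in KO PBS and 9.46 ± 2.34 CPM in KO BLM (log2 fold change 3.45, adjusted p = 0.0312, edgeR). Of 3 B cell genes tested, 2 rose in WT and 1 in KO, Cd22, an inhibitory receptor of B cells (0.472 ± 0.290 and 5.92 ± 2.40 CPM, log2 fold change 3.62, adjusted p = 0.0387, edgeR).

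In WT, 4 of 5 NK cell genes, 6 of 6 T cell genes, 3 of 8 dendritic and Langerhans cell genes, 5 of 6 endothelial genes, 4 of 6 fibroblast genes, 1 of 5 keratinocyte genes and 8 of 9 skeletal muscle genes rose, with none lower. Of 7 mast cell genes 1 rose and 1 fell, and of 18 growing-hair genes 9 fell. None of these genes passed in KO by edgeR. Over all genes, 19.8% were called higher in WT, 34% in either direction in WT, and 0.306% in either direction in KO. The keratinocyte and mast cell counts in WT were near or below the WT shares. Every listed marker in the file had counts in at least 1 mouse. The part of these cell types in the levels of the 7 genes was not tested.

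The genes that act with the receptors were read from a list of 86, of which 80 were tested. In WT, 59 rose and 0 fell after bleomycin, with a median log2 fold change of 1.67, where 19.8% of all genes were called higher. Without WT PBS mouse 159, 37 rose and 1 fell, against 1714 and 912 of all 18725 genes tested. In KO 0 of the 80 were called by edgeR, 24 had an unadjusted p under 0.05 and DESeq2 called 11. The shares of all genes were 0.306%, 20% and 6.14%. Without KO PBS mouse 136 edgeR called 10 and without KO BLM mouse 141 it called 11. Over all genes it called 2632 of 18739 and 1162 of 18783 in these fits. Between the PBS groups 0 were called (28 at an unadjusted p under 0.05, 3 by DESeq2), between the BLM groups 0 (10 and 3), and for the difference of responses 0 (42 and 24). The shares of all genes in the same order were 20.4%, 16.6% and 31.1% at an unadjusted p under 0.05. DESeq2 called 3.83%, 3.34% and 18.5% of all genes. Without KO PBS mouse 136 edgeR called 46, 9 and 51 in these 3 comparisons, and 6870, 1292 and 7470 of all 18739 genes tested. Averaged over the genotypes 53 rose and 0 fell, where 14.7% of all genes were called higher.

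Of the ligands, only Ighg1, the constant region of IgG1, had enough counts to test, at 1.30 ± 0.31 CPM in WT PBS and 1.07 ± 0.93 CPM in WT BLM, and it was not called (adjusted p = 0.766, edgeR). Among the other Fc receptors and their relatives 7 of 11 rose in WT. Fcer1a, the IgE-binding chain that uses Fcer1g on mast cells, was at 0.546 ± 0.083 and 2.71 ± 1.42 CPM in WT and at 0.875 ± 0.507 and 4.66 ± 2.62 CPM in KO, and was called in WT (log2 fold change 2.30, adjusted p = 0.0166) but not in KO (2.40, adjusted p = 0.0957, edgeR). Fcrl5, a B cell receptor, had 0 counts in all 6 PBS mice and 2 to 18 in WT BLM and 6 to 10 in KO BLM mice. B2m, the partner of Fcgrt, rose in WT from 450 ± 25.5 to 1353 ± 94.9 CPM (1.59, adjusted p = 0.00777, edgeR), unlike Fcgrt itself.

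The list of other receptors using Fcer1g or its relative Tyrobp also held Tyrobp itself and the inhibitory receptors Pirb and Lilrb4a. Of its 13 genes tested, 12 rose in WT. Trem2, a lipid-sensing receptor of macrophages, went from 2.83 ± 0.81 to 41.1 ± 7.11 CPM in WT (log2 fold change 3.86, adjusted p = 0.00437) and from 4.35 ± 2.96 to 34.1 ± 16.6 CPM in KO (2.97, adjusted p = 0.0585, edgeR). Clec4n, the lectin dectin-2 that pairs with Fcer1g, went from 2.42 ± 0.94 to 25.3 ± 7.97 CPM in WT (3.37, adjusted p = 0.00431) and from 4.10 ± 2.13 to 23.2 ± 9.30 CPM in KO (2.50, adjusted p = 0.0612). Both had larger log2 fold changes in WT than Fcer1g.

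Of the Src kinases that phosphorylate the gamma chain, 3 of 5 rose in WT, among them Fgr (3.65 ± 1.03 to 38.7 ± 9.66 CPM) and Lyn (12.4 ± 3.35 to 57.7 ± 16.2 CPM). The log2 fold changes of Fgr and Lyn in WT were 3.40 and 2.22, above that of Syk. In KO they were 1.25 and 0.43, with adjusted p of 0.176 and 0.542 (edgeR). Downstream of Syk, 16 of 24 adaptors and enzymes rose in WT, among them Lat2 (2.54, adjusted p = 0.00393), an adaptor of myeloid and B cells, Vav1 (2.26, 0.00809), an exchange factor for Rac, and Pik3r5 (2.51, 0.00545), a subunit of phosphoinositide 3-kinase gamma.

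The inhibitory side moved in the same direction: 9 of 11 inhibitors rose in WT. Inppl1, the phosphatase SHIP2, went from 60.7 ± 9.88 to 154 ± 33.9 CPM (log2 fold change 1.34, adjusted p = 0.00399, edgeR) and Dok1, an adaptor that restrains Ras, from 9.77 ± 0.055 to 29.8 ± 9.28 CPM (1.61, adjusted p = 0.00329). Of 14 effectors of phagocytosis and of the oxidase, 11 rose. Cybb, the catalytic subunit of the phagocyte NADPH oxidase, went from 14.2 ± 4.70 to 115 ± 15.5 CPM in WT (3.02, adjusted p = 0.00477) and from 30.9 ± 19.4 to 57.6 ± 4.93 CPM in KO (0.90, adjusted p = 0.296, edgeR). Cyba, its membrane partner, went from 19.2 ± 3.58 to 93.4 ± 26.7 CPM in WT (2.28, adjusted p = 0.00764).

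Each of the 7 genes was also matched with the genes whose pattern over the 12 mice was most like its own, measured as the root mean square difference of centred log2 CPM among 13202 genes. The nearest to Fcgr2b was Nrros at 0.085, followed by Fcgr3 at 0.10 and the kinase Btk at 0.13. Fcgr3 was nearest to C1qc at 0.10, a chain of complement C1q, then to Fcgr2b at 0.10 and Pirb at 0.11. Fcer1g was nearest to Rac2 at 0.11, then to Tyrobp and Spi1, the gene of PU.1, both at 0.13.

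The other 4 genes had different nearest genes. Fcgr1 was nearest to Phf11b at 0.22, Zbp1 at 0.22 and Oasl2 at 0.24, of which Zbp1 and Oasl2 are known as interferon-induced genes. Fcgr4 had no close match by this measure, its nearest being Slamf9 at 0.42, Clec4n at 0.45 and Lair1 at 0.45. The measure is not scaled, so it grows with large changes and low counts, and Fcgr4 had 19 reads in KO PBS mouse 136. Fcgrt was nearest to Ramp2 at 0.20, a receptor component of endothelium, Fam124a at 0.21 and Osr1 at 0.21. Near to Syk were Heatr5a at 0.14 and Znfx1 at 0.14. These values describe likeness over mice that share their groups and libraries.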

How the data were processed

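RNA-Seq of skin was measured in 12 mice. The authors prepared stranded mRNA libraries, sequenced read pairs and deposited 1 file of read counts per gene, not normalized. The submitters' processing notes name GRCm38.p6 and MultiQC 1.7. The aligner, the counter and its use of strand are not given in the sources used here. Mice were grouped by the titles in the labels, and the methods describe controls as littermates without saying which mice shared a litter, so p-values measure the spread between these mice.

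The 7 genes, the lists of partners and markers, and the tests were chosen with earlier results of these data known. From the deposited counts, edgeR 4.0.16 (R 4.3.3; TMM, filterByExpr with at least 10 counts and 15 in total, quasi-likelihood test) fitted 4 group means to all 12 mice, with 6 contrasts and Benjamini-Hochberg adjustment over the 18311 genes tested, threshold 0.05. The biological coefficient of variation was 34.9%. The fit was tested on simulated data. CPM are counts scaled to the library total times its TMM factor. DESeq2 1.42.0 was the alternative tool. Other size factors and filters, the 2 groups alone, hair or macrophage genes as a covariate, and each mouse left out were also tried. The fit without mice 136 and 141 was added after seeing the data. Genes were named as all 7 members, the 3 nearest to each, and up to 3 of each list by smallest p in the averaged contrast, with list genes called where at most 5 were. Some genes that this rule names are not reported here. Positions come from GENCODE M21 and promoters from RefSeq. Python 3.11.15 and matplotlib 3.10.9 were used. Protein sequences were not used here.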

Additional observations from a re-analysis of the deposited data

How the results depend on the processing

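Group sizes of 3 and a coefficient of variation of 34.9% limit what could be seen. No paired analysis was possible because the sources do not say which mice shared a litter. Other size factors, the filter of 1 CPM and the fit of the 2 groups alone kept the count of the 7 genes called within 1.5 times, and the direction of each. Of the 868 alternative values of single genes, 741 kept direction and side of the threshold, 49 lost and 35 gained a call, and 43 reversed. The cause was not tested.

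Of the 7 genes called in WT (6), 0 remained with the hair list as covariate and 0 with the macrophage list. In KO (0), 1 was called by DESeq2, 3 with the hair list, 2 with the macrophage list and 1 without mice 136 and 141. Without both mice 5 were called between the PBS groups, 1 between the BLM groups and 6 for the difference of responses. That fit called 7648, 815 and 7218 of all 18688 genes tested in the same order. DESeq2 called 1 between the BLM groups. Averaged, 5 were called higher, and with the macrophage list 0 were called higher and 1 lower. Of all 18311 genes tested, 2697 were called higher averaged, and with the macrophage list 376 higher and 213 lower. Leaving out 1 mouse gave 1 to 6 in WT, 0 to 1 in KO, 0 to 5 between the PBS groups, 0 to 1 between the BLM groups, 0 to 6 for the difference and 3 to 6 averaged. For all genes called the ranges were 2615 to 8565 (WT), 0 to 2632 (KO) and 6 to 6870 (PBS groups). They continued with 5 to 1292 (BLM groups), 0 to 7470 (difference) and 2001 to 6041 (averaged).

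Of the partner list called in WT (59), 0 remained with the hair list and 3 with the macrophage list. In KO (0), 11 were called by DESeq2, 3 without a filter, 33 with the hair list, 13 with the macrophage list and 20 without mice 136 and 141. Over all genes, DESeq2 called 1212 of 19732 in KO and the fit without a filter 176 of 34689. The hair list gave 1666 of 18311, the macrophage list 455 of 18311, and leaving out both mice 4164 of 18688. Between the PBS groups 3 were called by DESeq2 and 49 without both mice, between the BLM groups 3 and 1, and for the difference 24 and 45. Averaged, 53 became 22 with the macrophage list, 21 higher and 1 lower. Over all 18311 genes tested, 4193 became 589, of which 376 were higher and 213 lower. Leaving out 1 mouse gave 38 to 66 in WT, 0 to 11 in KO, 0 to 46 between the PBS groups, 0 to 9 between the BLM groups, 0 to 51 for the difference and 37 to 56 averaged.

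With the hair list, log2 fold changes reversed to -0.40 for Fcgrt in WT, to 0.067 for Syk in KO, between the PBS groups to -0.60 (Fcgr1), -0.15 (Fcgr2b), -0.14 (Fcgr3), -1.22 (Fcgr4), -0.48 (Fcer1g) and -0.088 (Syk), between the BLM groups to 0.64 (Fcgr1), 0.17 (Fcgr2b), 0.21 (Fcgr3), 0.66 (Fcgr4), 0.68 (Fcer1g) and 0.27 (Fcgrt), and for the difference to 1.25 (Fcgr1), 0.32 (Fcgr2b), 0.35 (Fcgr3), 1.88 (Fcgr4), 1.17 (Fcer1g) and 0.051 (Fcgrt). With the macrophage list they reversed to -1.11 for Fcgrt in WT, between the PBS groups to -0.034 (Fcgr1), -0.69 (Fcgr4), -0.059 (Fcer1g) and -0.14 (Syk), between the BLM groups to 0.12 (Fcgr1), 0.091 (Fcgr4), 0.26 (Fcer1g) and 0.31 (Fcgrt), and for the difference to 0.16 (Fcgr1), 0.78 (Fcgr4), 0.32 (Fcer1g) and 0.096 (Fcgrt). Without mice 136 and 141 Fcgr2b in KO was -0.046. Leaving out 1 mouse reversed Fcgr2b in KO (-0.20 to 0.65), Fcgr3 in KO (-0.0011 to 0.80), Syk in KO (-0.20 to 0.066), Fcgr4 between the PBS groups (-0.39 to 1.06), Syk there (-0.013 to 0.25) and Fcgrt between the BLM groups (-0.56 to 0.041).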
